A study of Bubalus bubalis with 12 samples.

Results

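The cytosolic heat shock genes described here are 10 genes of the ruminal wall of dairy buffaloes, taken by their symbols from the 34037 genes of the expression table. They are the heat shock transcription factors HSF1 (gene 102391579) and HSF4 (102389069), the chaperones HSPA8 (102411242), HSPH1 (102405057), HSP90AA1 (102409833) and HSP90AB1 (102389823), the J-domain cochaperones DNAJA1 (102390684), DNAJA4 (102399604) and DNAJB1 (102397667), and the small heat shock protein HSPB1 (102406703). All 10 had reads in all 12 animals. The study compared Italian Mediterranean dairy buffaloes (Bubalus bubalis) on a total mixed ration, the control group, with buffaloes whose ration included ryegrass green feed at about 30%, the treated group. The treated ration also held less corn silage, alfalfa hay and concentrate, more corn meal, and no soybean meal, calcium carbonate or added vitamins. Its share of forage and its fat content were higher. The authors describe the rations as equal in nitrogen and energy. Total RNA of frozen rumen wall, collected at slaughter from adult multiparous cows, was sequenced as 1 library for each of 6 control and 6 treated animals. The comparison asks whether transcript levels in the ruminal wall differed between the ration with green feed and the control ration.

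Heat shock proteins are molecular chaperones that bind unfolded or aggregating proteins and help them to fold. HSF1 is the main transcription factor of the heat shock response in mammals: it is held inactive in unstressed cells and, when misfolded proteins accumulate, forms trimers that bind heat shock elements and induce the inducible chaperone genes. The wall of the rumen is lined by a stratified squamous epithelium exposed to fermentation acids, heat and osmotic shifts, and several chaperone genes are expressed constitutively in such epithelia.

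Levels are given as FPKM, fragments per kilobase of transcript, scaled to the number of mapped fragments, a unit that allows levels of different genes to be set side by side. Counted fragments ranged from 10531245 to 12947982 per library. The labelled tissue carried the markers of squamous epithelium, with summed levels of 8 such markers between 2869 and 5203 FPKM and KRT5, a basal keratin, at 451 to 2372 FPKM. The summed level of 10 smooth muscle markers was 29.7 to 51.6 FPKM in the control group and 16.9 to 42.3 FPKM in the treated group, and that of 6 immune markers was 12.2 to 22.7 and 8.71 to 21.1 FPKM. In these bulk samples, fewer cells of a type and less RNA per cell cannot be told apart.

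The libraries of control 6 and treated 6 stood apart from the other 10. Their median correlation with the other libraries was 0.926 and 0.924, against 0.937 to 0.960 for the rest, and each was nearest to the other (r = 0.944, across the 12760 genes tested). In both, 19.2% of the genes tested lay below every other animal and 8.61% lay above. Squamous epithelium markers summed to 2869 FPKM in control 6 and 3176 FPKM in treated 6, the lowest sum of each group. Single markers of this list went in different directions. KRT5 was at 451 and 498 FPKM in these libraries, against 1179 to 2372 FPKM in the other 10. DSG3 was at 971 and 843 FPKM, against 550 to 830 FPKM. No label sets these animals apart, and the diet difference of each of the 10 genes is therefore also given for the 5 control and 5 treated animals that remain without them.

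The chaperones HSPA8, HSP90AA1, HSP90AB1 and HSPB1 were among the most abundant transcripts of the ruminal wall, whereas the transcription factor HSF4 had a low level. By mean FPKM over the 12 animals, HSPA8 ranked 154 of 34037 genes, HSP90AA1 267, HSP90AB1 305 and HSPB1 417. DNAJB1 (rank 1134), DNAJA1 (1705) and HSPH1 (1730) followed, and then HSF1 (3558), DNAJA4 (8210) and HSF4 (10871). In every animal HSPA8 was above both HSP90 genes, HSP90AB1 above HSPB1, HSPB1 above DNAJB1, and HSF1 below all 7 of the chaperone and cochaperone genes other than DNAJA4. The order of HSP90AA1 and HSP90AB1, and that of DNAJA1 and HSPH1, differed between animals, and their ranges overlapped. Together the 10 genes made up 0.178% to 0.307% of all FPKM of a library, with the lowest share in control 6 and the highest in control 4.

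**Figure D1:**
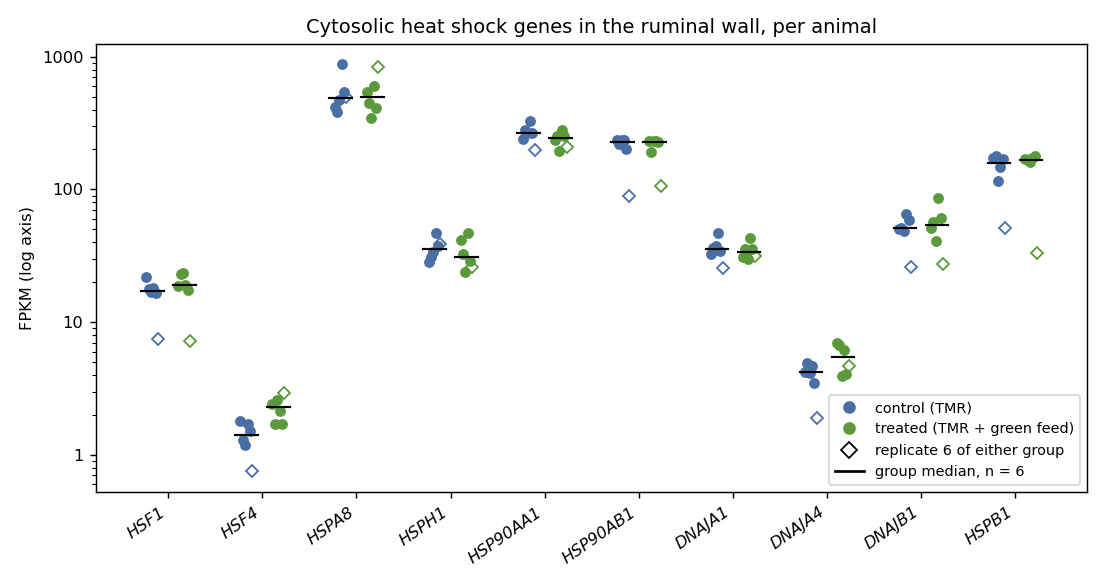
FPKM (log axis) of each of the 10 genes in each of the 6 control and 6 treated animals, 1 point per animal, with control 6 and treated 6 marked and a bar at each group median. The groups overlap in every panel; HSF4 has the least overlap, with control animals from 0.749 to 1.81 FPKM and treated animals from 1.69 to 2.91 FPKM.

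Of the 10 genes, 1 differed between the diets at a nominal limma p under 0.05, HSF4, which was higher in the treated group. No gene passed after Benjamini-Hochberg adjustment over all 12760 genes tested, where the adjusted limma p of each of the 10 was 0.9996. The background share was 1.27% of all genes tested at the nominal threshold (162 genes, with 0.799% higher and 0.47% lower) and 0% at the adjusted one. Without control 6 and treated 6, the nominal count was again 1 of 10, HSF4, against a background of 2.48% (1.61% higher and 0.87% lower), and again no gene passed the adjustment (0%). The log2 fold change, treated over control, was positive for 6 of the 10 genes and negative for 4, with a median of 0.015 (0.029 without control 6 and treated 6). Over all genes tested the median was 0.0051 (0.022 without those libraries).

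HSF4 encodes a heat shock transcription factor that is best known for its part in development of the eye lens and that, in contrast to HSF1, has a limited role in the acute heat shock response. Its FPKM was 1.81, 1.28, 1.18, 1.72, 1.51 and 0.749 in control 1 to 6. In treated 1 to 6 it was 2.40, 1.69, 2.59, 2.15, 1.72 and 2.91. Treated animals 1, 3, 4 and 6 lay above every control animal, controls 2, 3, 5 and 6 lay below every treated animal, and the remaining 2 animals of each group overlapped. The group means were 1.38 ± 0.39 FPKM (SD, n = 6) and 2.25 ± 0.485 FPKM (SD, n = 6). This was a log2 fold change of 0.73 ± 0.24 (SE), or 1.66-fold with a 95% interval of 1.16 to 2.37 (limma p = 0.00862, adjusted p = 0.9996; two-sided exact permutation p = 0.0108). The smallest p that the 924 assignments of the animals allow is 0.00216.

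The lowest and the highest HSF4 level of the series were those of control 6 and treated 6, the libraries that stood apart. Without them the control animals spanned 1.18 to 1.81 FPKM and the treated animals 1.69 to 2.59 FPKM. Their log2 fold change was 0.49 ± 0.20 (SE; limma p = 0.0292, adjusted p = 0.9995), with an exact permutation p of 0.0397 against a smallest possible 0.00794. These levels rested on 17 to 80 counted fragments per animal. The study itself listed HSF4, and also DNAJA4, among the genes that differed between the diets at a nominal EdgeR p under 0.05. It used the same animals and found no gene after adjustment. Their place among the genes described here is therefore not independent evidence of a difference.

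HSF1, the factor that drives the heat shock response, did not pass the test. Its lowest, median and highest FPKM were 7.51, 17.2 and 21.8 in the control group and 7.15, 18.9 and 23.6 in the treated group. The lowest value of each group belonged to animal 6, and the other 5 animals of the groups, 16.5 to 21.8 and 17.5 to 23.6 FPKM, overlapped over most of their range. On the log2 scale HSF1 differed by 0.12 ± 0.30 (SE; limma p = 0.690, exact permutation p = 0.574), and by 0.16 ± 0.11 (SE; limma p = 0.183) without control 6 and treated 6. HSF1 exceeded HSF4 by 7.81 to 14.2 times in the 10 remaining animals and by 10.03 times in control 6, but by 2.45 times in treated 6, where HSF1 was at its lowest and HSF4 at its highest.

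**Figure D2:**
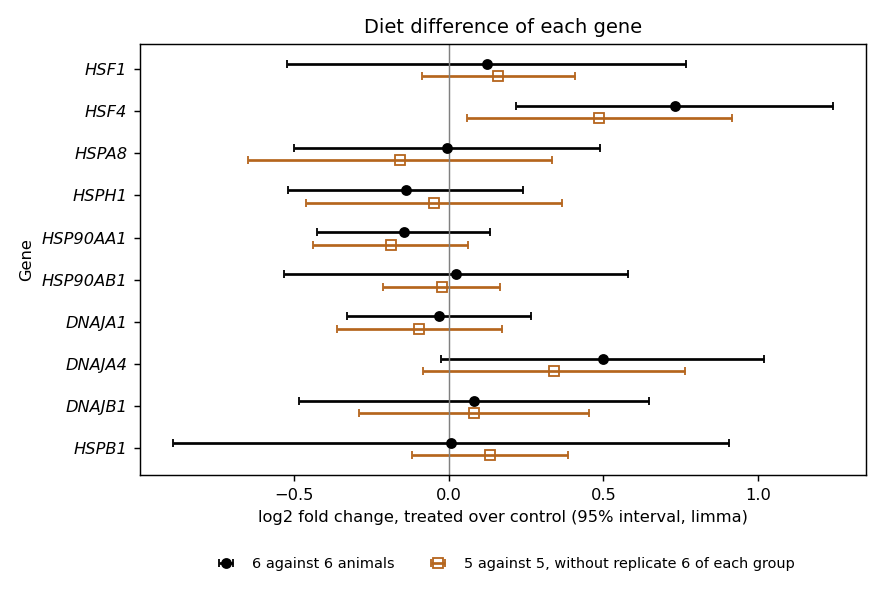
Log2 fold change in FPKM, treated over control, of each of the 10 genes with its 95% interval from limma, for all 12 animals (filled circles) and without control 6 and treated 6 (open squares). HSF4 is the 1 gene whose interval excludes 0 in both fits; without the pair of libraries the intervals of HSF1, HSPB1 and HSP90AB1 become narrower.

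HSPA8 encodes the constitutive cytosolic HSP70, which also removes clathrin coats and delivers proteins to the lysosome. It was the most abundant of the 10 genes, at 382, 485 and 877 FPKM (lowest, median and highest) in the control group and 344, 495 and 835 FPKM in the treated group. The highest animals were control 4 in one group and treated 6 in the other, and the groups overlapped almost completely. Between the diets HSPA8 had a log2 fold change of -0.0066 ± 0.23 (SE; limma p = 0.978, exact permutation p = 0.981), and -0.16 ± 0.22 (SE) without animals 6. In the RefSeq table of assembly NDDB_SH_1, which is not the assembly used for the counts, 2 genes, LOC112579758 and LOC112579760, overlap HSPA8.

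HSPH1 encodes the HSP110 protein that acts as nucleotide exchange factor of HSP70 and is a known target of HSF1. Its FPKM was 28.5, 35.6 and 46.8 (lowest, median and highest) in the control group and 23.8, 30.9 and 46.8 in the treated group. Control 4 and treated 4 shared the highest level, and the groups overlapped. The log2 fold change of HSPH1 was -0.14 ± 0.18 (SE; limma p = 0.445, exact permutation p = 0.474), and -0.048 ± 0.19 (SE) without animals 6.

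The HSP90 genes HSP90AA1, the stress-inducible isoform, and HSP90AB1, the constitutive one, encode chaperones that complete the folding of kinases and steroid receptors. HSP90AA1 was at 199.5, 266 and 325 FPKM (lowest, median and highest) in the control group and at 195.7, 244 and 280.5 FPKM in the treated group, a log2 fold change of -0.15 ± 0.13 (SE; limma p = 0.283, exact permutation p = 0.258). The groups overlapped, and without animals 6 the log2 fold change of HSP90AA1 was -0.19 ± 0.11 (SE; limma p = 0.128, exact permutation p = 0.119). HSP90AB1 was at 89.2, 228 and 237 FPKM in the control group and at 106, 229 and 232 FPKM in the treated group, with animal 6 the lowest of each and the others closely grouped. Its log2 fold change was 0.023 ± 0.26 (SE; limma p = 0.931, exact permutation p = 0.905), and -0.022 ± 0.087 (SE) without animals 6.

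Among the 10 animals that remain without animals 6, HSP90AB1 was the steadiest of the 10 genes, with a coefficient of variation of 6.75% against 30.4% for HSPA8, the most variable. The 95% interval of its diet difference in these animals was -0.21 to 0.17 on the log2 scale. HSP90AA1 stood at 0.849 to 1.38 times HSP90AB1 in them, with a median of 1.17. In control 6 and treated 6 this ratio was 2.24 and 1.96, with HSP90AB1 at 0.435 times and HSP90AA1 at 0.785 times the mean level of the other animals.

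The J-domain cochaperones recruit HSP70 to its substrates and stimulate its ATPase. DNAJA1, a farnesylated partner of HSPA8, was at 25.8, 35.3 and 46.6 FPKM (lowest, median and highest) in the control group and at 30.0, 33.6 and 43.3 FPKM in the treated group. DNAJB1, the HSF1-induced HSP40, was at 25.8, 50.9 and 65.1 FPKM in the control group and at 27.3, 54.0 and 86.3 FPKM in the treated group, with treated 4 the highest and animal 6 the lowest of each group. The groups overlapped for both genes, and neither passed the test. For DNAJA1 the log2 fold change was -0.031 ± 0.14 (SE; limma p = 0.828, exact permutation p = 0.835), and -0.096 ± 0.12 (SE) without animals 6. For DNAJB1 it was 0.081 ± 0.26 (SE; limma p = 0.763, exact permutation p = 0.797), and 0.081 ± 0.17 (SE) without animals 6.

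DNAJA4, a less studied relative of DNAJA1, was much the lowest of the J-domain genes described here and had the second largest fold change of the 10 genes. Its FPKM was 4.24, 4.93, 4.14, 4.70, 3.46 and 1.90 in control 1 to 6. In treated 1 to 6 it was 6.96, 6.74, 3.91, 6.20, 4.04 and 4.64. Treated animals 1, 2 and 4 lay above every control animal, while treated 3, 5 and 6 lay within the range of controls 1 to 5. The group means were 3.90 ± 1.10 FPKM (SD, n = 6) and 5.41 ± 1.38 FPKM (SD, n = 6), with a log2 fold change of 0.50 ± 0.24 (SE) and a 95% interval of -0.024 to 1.02, which did not pass the test (limma p = 0.0601, exact permutation p = 0.0758). Without animals 6 it was 0.34 ± 0.19 (SE; limma p = 0.104, exact permutation p = 0.143).

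The DNAJA4 result depended on single animals: the limma p was below 0.05 when control 2, control 4, treated 3 or treated 5 was left out, with a lowest value of 0.0386 without treated 3. With the mean log2 level of the smooth muscle and fibroblast markers as a covariate the log2 fold change of DNAJA4 was 0.27, with a nominal limma p of 0.347. The median log2 fold change was -0.70 over the 8 smooth muscle markers tested, of which DES alone was lower at the nominal threshold, and -0.66 over 6 fibroblast markers, of which none passed. Without animals 6 these medians were -0.69 and -0.74. The fibroblast markers summed to 40.8 to 258 FPKM in the control group and 17.5 to 172 FPKM in the treated group. With the same covariate HSF4 had a log2 fold change of 0.68 and a nominal limma p of 0.0362, against 0.73 and 0.00862 without it. The part of these markers in either result was not tested.

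HSPB1 encodes the small heat shock protein HSP27, an ATP-independent holdase that is abundant in squamous epithelia. Its FPKM was 51.1, 158 and 179 (lowest, median and highest) in the control group and 33.2, 168 and 179.8 in the treated group. Animal 6 was by far the lowest of each group, and the other treated animals were closely grouped between 162 and 179.8 FPKM, with treated 5 just above the highest control animal and the other 4 within the control range. The log2 fold change of HSPB1 was 0.0075 ± 0.42 (SE; limma p = 0.986, exact permutation p = 0.970), and 0.13 ± 0.12 (SE) without animals 6.

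Relative to the other animals, the libraries that stood apart had low levels of some of the 10 genes and not of others. The mean of control 6 and treated 6 was 0.258 times that of the other 10 animals for HSPB1, 0.380 times for HSF1, 0.435 times for HSP90AB1 and 0.467 times for DNAJB1. In these 4 genes both libraries lay below every other animal, a pattern that 19.2% of all genes tested shared. The ratio was 0.663 for DNAJA4, 0.785 for HSP90AA1, 0.791 for DNAJA1 and 0.922 for HSPH1. For HSPA8 the ratio of 1.32 came from treated 6, which was at 1.78 times the mean of the other 5 treated animals, while control 6 was at 0.921 times that of the other 5 controls. HSF4, at 1.01, combined opposite values, since control 6 was at 0.499 times and treated 6 at 1.38 times the mean of the other 5 animals of its group. What set these libraries apart was not tested.

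**Figure D3:**
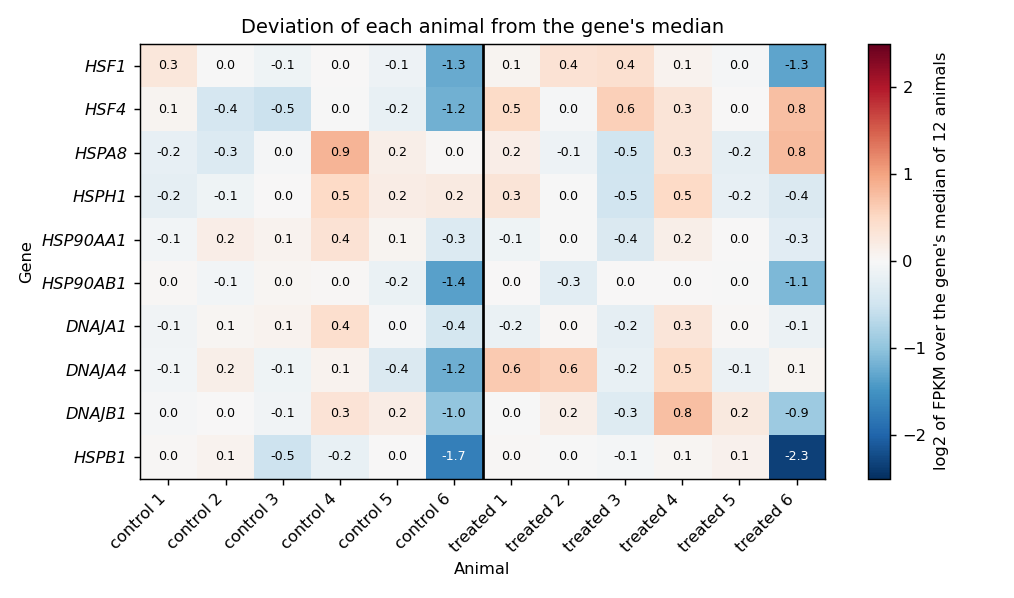
Log2 of the FPKM of each gene over its median of the 12 animals, as a heat map with genes in rows and animals in columns (control 1 to 6, then treated 1 to 6, separated by a line). Control 6 and treated 6 are the darkest columns for HSF1, HSP90AB1, DNAJB1 and HSPB1, and they differ in sign for HSF4.

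Proportions between partner genes also differed in these libraries. DNAJB1 was at 1.29 to 2.00 times DNAJA1 in the other 10 animals, and at 1.00 and 0.865 times in control 6 and treated 6. HSPA8 was at 6.78 to 13.5 times DNAJB1 in the other 10 animals, and at 19.2 and 30.6 times in these libraries. The ratio of HSPA8 to HSPH1, the HSP70 and its exchange factor, was 12.4 to 18.7 in the 10 animals (median 14.2) and 12.7 in control 6, whereas it reached 32.4 in treated 6.

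HSPH1 is among the best known targets of HSF1, and the other 9 genes were compared with HSPH1 across animals, with diet as a covariate. Over all 12 animals, 0 of the 9 followed HSPH1, at a nominal limma p under 0.05 as well as after adjustment, against a background of 3.21% of 12759 genes at the nominal threshold (2.23% rising with HSPH1 and 0.988% falling). Without control 6 and treated 6, HSPA8, DNAJB1, HSP90AA1 and DNAJA1 rose with HSPH1 at the nominal threshold, 4 of 9 against a background of 7.34% of genes (4.48% that rose and 2.86% that fell). None of the 9 passed the adjustment over all genes, and neither did any gene of the table. Leaving these libraries out was decided after seeing the data. The immune markers CD3E (slope 1.38, nominal limma p of 0.00683) and PTPRC (slope 0.83, nominal limma p of 0.0335), which mark T cells and leukocytes, also rose with HSPH1 in these 10 animals. They were 2 of 3 immune markers tested, while 0 of 27 muscle, fibroblast, squamous and endothelial markers followed HSPH1, and their part in the result was not tested.

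HSPA8 followed HSPH1 most closely in the 10 animals. Pearson's r was 0.913 (permutation p = 6e-05) and Spearman's rho was 0.952 (permutation p = 0.0001), and r was 0.945 when control 4 and treated 4, the animals farthest from the median of HSPH1, were left out. The slope was 1.09 ± 0.19 (SE) in log2 units of HSPA8 per log2 unit of HSPH1, the 10th smallest p of 12759 genes, with an adjusted limma p of 0.186. Over all 12 animals r was 0.495 (permutation p = 0.104) and rho was 0.650 (permutation p = 0.0260), and r fell to 0.184 without control 4 and treated 4. Within diets r was 0.917 over the 6 control animals and 0.260 over the 6 treated animals, among which treated 6 had the highest HSPA8 and the second lowest HSPH1.

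The other 3 genes followed HSPH1 less closely in the 10 animals, and their relation rested on control 4 and treated 4. For DNAJB1 r was 0.741 (permutation p = 0.0112) and rho 0.624 (permutation p = 0.0612), with r = 0.475 without those animals and an adjusted limma p of 0.485. For HSP90AA1 r was 0.713 (permutation p = 0.0171) and rho 0.576 (permutation p = 0.0875), with r = 0.508 without those animals and an adjusted limma p of 0.571. For DNAJA1 r was 0.692 (permutation p = 0.0257) and rho 0.612 (permutation p = 0.0682), with r = 0.191 without those animals and an adjusted limma p of 0.611. HSP90AB1 (r = 0.051), HSF4 (r = 0.0034), HSPB1 (r = -0.10), HSF1 (r = -0.46) and DNAJA4 (r = 0.46) did not pass the nominal threshold. The 9 relations were adjusted together with all others of the table.

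**Figure D4:**
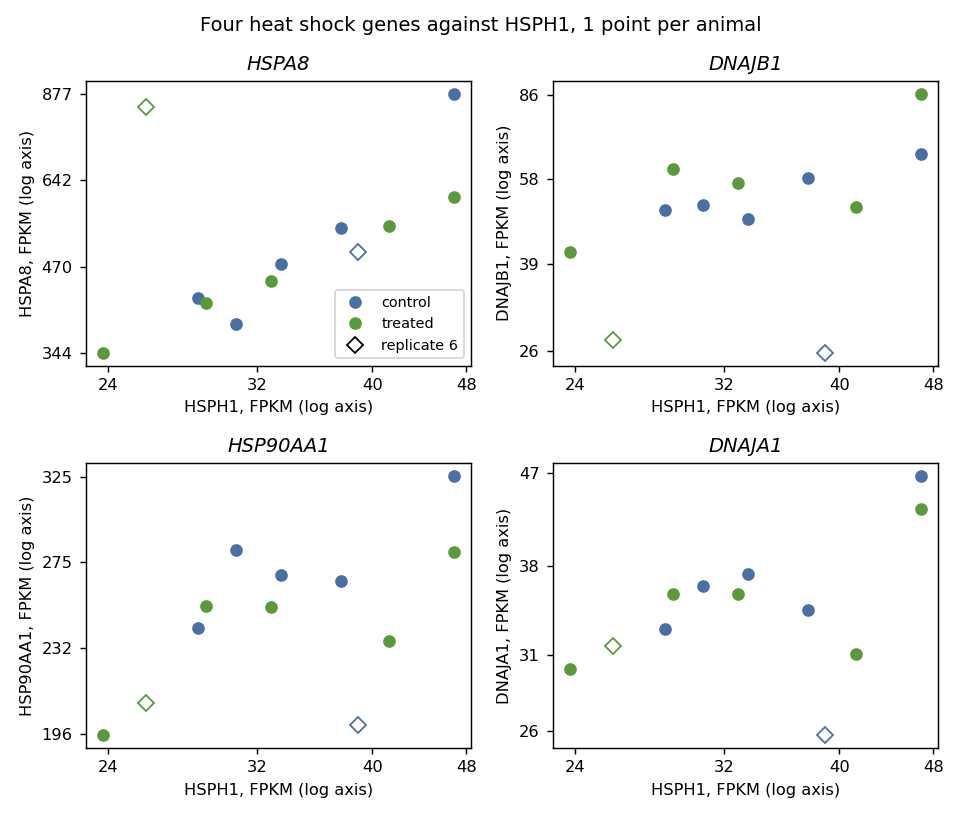
FPKM of HSPA8, DNAJB1, HSP90AA1 and DNAJA1 against FPKM of HSPH1 (log axes), 1 point per animal, control and treated animals in different colours and control 6 and treated 6 marked. In HSPA8 the 10 other animals lie along a line (r = 0.913), and treated 6 lies far above it, at 835 FPKM of HSPA8 and 25.8 FPKM of HSPH1.

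The genes whose levels went most closely with those of HSF4 over the 12 animals were LOC112578811 (Pearson's r = 0.911 on the log2 scale), COPS3 (r = 0.847) and TSEN54 (r = 0.833). Without animals 6 these correlations were 0.781, 0.527 and 0.490. For DNAJA4 they were TNFRSF6B (r = 0.915, and 0.814 without animals 6), EZR (0.906 and 0.762) and MPND (0.862 and 0.691). For HSPH1 they included SAMSN1 (r = 0.890, and 0.956 without animals 6) and INSIG1 (0.884 and 0.887). These correlations are given as a description.

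Genes of the wider chaperone network were read from 9 lists with 100 symbols, of which 96 had a row in the table and 86 passed the filter on low counts. At a nominal limma p under 0.05, 1 of the 86 had risen and 3 had fallen with green feed (4.65%, against a background of 1.27%), and none passed after adjustment. The lists were chosen with earlier results of these data known, and the study had listed HSPA12A and HSP90B1 among these genes. The share is therefore not independent evidence of a difference. Without animals 6 the count was 3 (BAG2, HSP90B1 and CALR; 3.49%, against 2.48%). With the smooth muscle and fibroblast covariate it was 10 (11.6%, against 2.37% of all genes in that fit). The median log2 fold change of the 86 genes was -0.022, beside 0.0051 over all genes tested. The count moved with the animal left out. It was 0 without control 4, and 1 without control 1 or treated 4. It was 2 without control 2, control 6, treated 3 or treated 5, and 3 to 6 without any other animal. The share of all genes tested was not counted in these fits, so whether the whole table moved alike was not tested.

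The HSF family and its regulators held no gene past the threshold. HSF2, a factor that can join HSF1 in mixed trimers, was at 8.06 ± 1.73 FPKM (SD, n = 6) in the control group and 9.18 ± 1.89 FPKM (SD, n = 6) in the treated group, a log2 difference of 0.19, which was 0.19 without animals 6 too. HSBP1, which binds the trimerization domain of HSF1, was far more abundant, at 99.0 ± 13.8 and 102 ± 28.2 FPKM (SD, n = 6 each). Of the further cytosolic HSP70 and HSP110 genes, HSPA4, another HSP110, led with 44.4 ± 5.30 and 42.4 ± 6.20 FPKM (SD, n = 6 each). HSPA6, a strictly inducible HSP70 in humans, spanned 7.26 to 34.6 FPKM in the control group and 8.09 to 66.0 FPKM in the treated group, with treated 4 the highest animal and animal 6 the lowest of each group. The inducible HSP70 genes HSPA1A and HSPA1B had no row under these symbols.

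HSPA12A, a divergent relative of HSP70, was at 0.331 ± 0.186 FPKM (SD, n = 6) in the control group and 0.150 ± 0.0844 FPKM in the treated one (SD, n = 6), and differed by -1.13 on the log2 scale (limma p = 0.0495, adjusted p = 0.9996; exact permutation p = 0.0519). The groups overlapped. The study had listed this gene as lower from the same animals, at its unadjusted threshold, which is not independent evidence. Without animals 6 its limma p was 0.0726. No J-domain gene of the list differed (0 of 11 at the nominal threshold), and the most abundant were DNAJA2 at 60.2 ± 4.45 and 61.4 ± 10.02 FPKM and DNAJC7 at 22.2 ± 2.81 and 21.6 ± 2.37 FPKM (SD, n = 6 each). Of 9 further genes listed by symbol with the small heat shock genes, HSPB8 and HSPB11 had enough reads to be tested, and neither passed. HSPB8 was at 22.4 ± 10.2 and 22.1 ± 5.65 FPKM and HSPB11 at 1.90 ± 0.271 and 2.29 ± 0.683 FPKM (SD, n = 6 each).

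Among 21 cochaperones of HSP70 and HSP90, BAG2, which inhibits the ubiquitin ligase STUB1, was higher in the treated group. It was at 19.6 ± 4.11 FPKM in the control group and at 23.7 ± 1.46 FPKM in the treated group (SD, n = 6 each), and the groups overlapped. On the log2 scale BAG2 differed by 0.30 ± 0.14 (SE; limma p = 0.0445, adjusted p = 0.9996; exact permutation p = 0.0541). Without animals 6 the BAG2 difference was 0.35 on the log2 scale, with a nominal limma p of 0.0288. The most abundant cochaperones, FKBP4 at 100.3 ± 21.9 and 104 ± 18.7 FPKM and STUB1 at 63.8 ± 12.7 and 68.4 ± 9.48 FPKM (SD, n = 6 each), did not pass. The 8 subunits of the chaperonin CCT, which folds actin and tubulin, held no gene past the threshold. CCT3 was at 195 ± 22.4 and 191 ± 44.4 FPKM and CCT2 at 97.9 ± 15.8 and 97.0 ± 26.9 FPKM (SD, n = 6 each).

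The 7 mitochondrial chaperones tested also held none by limma, with HSPD1, the HSP60 of the matrix, at 304 ± 60.3 and 305 ± 49.8 FPKM (SD, n = 6 each). HSPA9, the mitochondrial HSP70, was at 226 ± 11.6 FPKM in the control group and 206 ± 9.20 FPKM in the treated group (SD, n = 6 each). The tests of HSPA9 parted at a log2 fold change of -0.13 ± 0.083 (SE; limma p = 0.135, exact permutation p = 0.0108). Without animals 6 the HSPA9 difference was -0.15 on the log2 scale, with a nominal limma p of 0.0628. The immediate early genes, which many stimuli induce within minutes, held 0 of 10 past the threshold, with IER3 at 91.5 ± 39.3 and 93.3 ± 25.2 FPKM and JUN at 73.1 ± 27.6 and 76.5 ± 26.5 FPKM (SD, n = 6 each).

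The chaperones of the endoplasmic reticulum, most of which the unfolded protein response controls, had a median log2 fold change of -0.24 over 13 genes (-0.22 without animals 6). The positive member was SERPINH1, the collagen chaperone HSP47, which heat shock also induces, at 0.24. The smooth muscle and fibroblast markers had medians in the same direction, -0.70 with 0 of 8 positive and -0.66 with 0 of 6 positive, and their part in the result was not tested. HSPA5, their HSP70, was at 149 ± 53.6 and 136 ± 61.0 FPKM (SD, n = 6 each) and did not pass. HSP90B1, the HSP90 of this compartment, was at 148 ± 21.2 FPKM in the control group and 120.0 ± 11.7 FPKM in the treated group (SD, n = 6 each), or -0.30 on the log2 scale with an SE of 0.11 (limma p = 0.0197, adjusted p = 0.9996; exact permutation p = 0.0152). The study had listed HSP90B1 as lower in the treated group from the same animals, at its unadjusted threshold, which is not independent evidence. CANX, a lectin chaperone, was at 87.1 ± 9.37 and 73.8 ± 9.77 FPKM (SD, n = 6 each; limma p = 0.0462, adjusted p = 0.9996; exact permutation p = 0.0390). Without animals 6 the limma p was 0.0247 for HSP90B1 and 0.11 for CANX, and CALR, a calcium-binding lectin chaperone, was then lower at a nominal limma p of 0.0496 (log2 fold change -0.29). The difference between the endoplasmic reticulum list and the cytosolic genes was not tested.

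**Figure D5:**
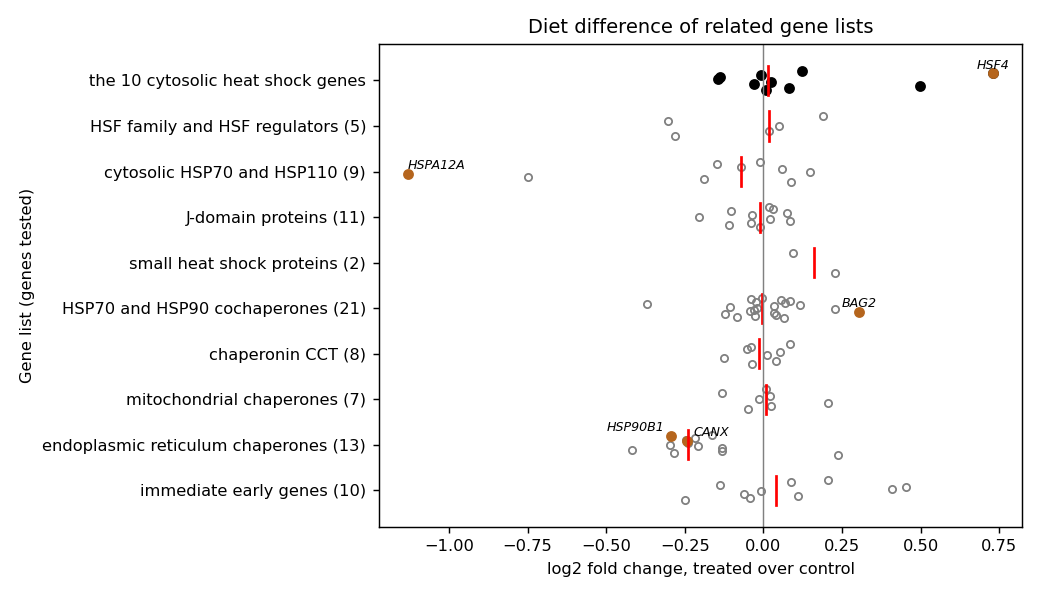
Log2 fold change in FPKM, treated over control, of each gene tested in the 9 related lists and of the 10 cytosolic heat shock genes, 1 point per gene, with filled coloured points for nominal limma p under 0.05 and a bar at each list's median. HSF4 and BAG2 lie to the right of 0, and HSPA12A, HSP90B1 and CANX to the left; the bar of the endoplasmic reticulum chaperones is at -0.24.

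Several genes of these lists also rose with HSPH1 across the 10 animals without animals 6, a choice of animals made after seeing the data. The lists were not counted against HSPH1 over all 12 animals, where 0 of the 9 other heat shock genes followed it. Of the 86 genes, 16 did so at a nominal limma p under 0.05 (18.6%, against a background of 4.48%) and 2 fell. They included 5 of the 8 CCT subunits (TCP1, CCT2, CCT6A, CCT7 and CCT8), 5 of the 13 endoplasmic reticulum chaperones (HSPA5, HSP90B1, PDIA4, DNAJC3 and SDF2L1), and the cochaperones STIP1, which couples HSP70 to HSP90, and AHSA1, which stimulates the ATPase of HSP90. HSPA4, DNAJB6, HSBP1L1 and IER2 made up the rest. The immune markers CD3E and PTPRC rose with HSPH1 in the same animals, as given above. None passed after adjustment over all genes.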

How the data were processed

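The authors trimmed the reads of stranded total RNA libraries with Trimmomatic 0.39, aligned them with STAR 2.5.2b to the water buffalo assembly UOA_WB_1, counted genes with featureCounts 2.0.0 and deposited 1 table of FPKM values for the series. The table has 34037 genes and 12 columns that match a sample, and 4 further columns of values were not used. Low FPKM values are whole multiples of the value of 1 fragment, from which counts were worked out for all 22972 genes above 0 (tolerance 0.01 of a fragment). The smallest counts that fitted were taken, so those of genes seen in few animals can be too low. The counts served as depth and as a filter of at least 40 counts, scaled to the mean total, in at least 1 animal. This filter was passed by 12760 genes, with all 10 genes described here among them.

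Log2(FPKM + 0.01) was compared between the diets with limma 3.58.1 (R 4.3.3, empirical Bayes with trend), with the Benjamini-Hochberg adjustment taken over every gene tested and without a block, and single genes with two-sided exact permutation tests of the difference in mean log2 levels. Fold changes are on the log2(value + 0.01) scale, which understates changes of low genes. The same model with HSPH1 as predictor and diet as covariate was used across animals, and permutation p-values of correlations used Python 3.11.15 and scipy 1.17.1. The scripts were tested on simulated data. Samples were grouped by the diet in the labels. No 2 libraries agreed within sampling noise. The alternatives were other pseudocounts, filters and scaling, robust estimation, a covariate of smooth muscle and fibroblast markers, a replicate block, a rank-sum test, and each animal left out. Leaving out control 6 and treated 6 together, and voom on the counts worked out, were added after seeing the data.

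The genes, lists and tests were chosen with earlier results of these data known. From each list, the genes with a nominal limma p under 0.05 and the 2 with the highest mean FPKM were to be named, and for HSF4, DNAJA4 and HSPH1 the 3 genes with the highest correlation; 1 of these is not reported here. Symbols were matched to RefSeq (NDDB_SH_1), where all 10 genes had an entry; coordinates are not given, since that assembly differs from the authors'.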

Additional observations from a re-analysis of the deposited data

Results flagged for a closer look

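Each of the 10 genes was examined in each diet group for 1 animal far from the other 5 (Dixon's test at 95%). Of the 20 groups 6 had one, where chance would give about 1 if the groups were independent. They were not, since the 10 genes share their animals. In 5 of the 6 it was animal 6. The share of such groups over all genes tested was not worked out. In 19.2% of all genes tested control 6 and treated 6 both lay below every other animal, and in 8.61% both lay above. These shares are a different measure from Dixon's test, and whether the count is particular to the 10 genes was not tested. HSF1 was at 7.51 FPKM in control 6, against 16.5 to 21.8 FPKM in the other control animals, and at 7.15 FPKM in treated 6, against 17.5 to 23.6 FPKM. HSP90AB1 was at 89.2 FPKM in control 6, against 203 to 237 FPKM, and at 106 FPKM in treated 6, against 192 to 232 FPKM. HSPB1 was at 33.2 FPKM in treated 6, against 162 to 179.8 FPKM. HSPA8 was at 877 FPKM in control 4, against 382 to 539 FPKM in the other control animals.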

How the results depend on the processing

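HSF4 had a limma p below 0.05 under every alternative fitted with limma and a rank-sum p of 0.0152, with log2 fold changes of 0.45 to 0.82 over the 23 alternatives, and no gene of the 10 passed the adjusted threshold under any. The count of the 10 genes at the nominal threshold was 2 with a replicate block and 1 to 2 with each animal left out in turn. Among the related genes the count of 4 became 10 with the smooth muscle and fibroblast covariate (11.6%, against 2.37% of all genes), 2 with the rank-sum test, and 0 to 6 with each animal left out. The cause was not tested, and the share of all genes was not counted for the rank-sum test or with each animal left out. With the covariate the log2 fold changes turned negative for HSF1 (-0.0028), HSPB1 (-0.15) and HSP90AB1 (-0.016); the rank-sum comparison gave 0.022 for HSPA8, and omitting control 6 and treated 6 gave -0.022 for HSP90AB1. With each animal left out, log2 fold changes ranged from -0.089 to 0.37 for HSF1, -0.15 to 0.15 for HSPA8, -0.26 to 0.40 for HSPB1, -0.20 to 0.20 for HSP90AB1, -0.12 to 0.052 for DNAJA1 and -0.098 to 0.26 for DNAJB1, none with p below 0.05. The replicate numbers of the labels are not stated to mark shared animals, pens or days. In the sample titles, same-numbered control and treated animals carry different numbers. The replicate block therefore pairs animals that no label links. Control and treated animals were correlated on log2 levels less the diet group mean of each gene. These correlations were -0.013 to 0.41 for same-numbered animals, with a mean of -0.039 over 30 pairs of other numbers. Within a diet the deviations cancel for each gene, so positive values in some pairs force negative ones in others. Of the 6 control animals, 3 correlated best with their own number. With the replicate block 326 genes of the table (2.55%) passed the nominal threshold instead of 162, none after adjustment, DNAJA4 had a nominal limma p of 0.0210, and the count of related genes was 6. Levels of HSF4 rest on few fragments, which limits their precision.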
